A study of Mus musculus with 10 samples.

Results

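The genes described here are 10 genes of haemoglobin, haem synthesis and iron handling, chosen by symbol for what they encode, among the 41249 gene identifiers counted in interscapular brown adipose tissue (iBAT). They are the adult α-globin genes Hba-a1 and Hba-a2, the adult β-globin genes Hbb-bs and Hbb-bt, the haem synthesis genes Alas2 and Alas1, the transferrin receptor gene Tfrc, the ferritin genes Fth1 and Ftl1, and the iron exporter gene Slc40a1. All 10 had a mean above 1 CPM (counts scaled to the size of each library), the level above which 13739 genes were tested. RNA of the whole depot was sequenced from 5 Axl KO and 5 wild-type (WT) mice, with 1 library per mouse. AXL is a receptor tyrosine kinase, and the study asked how its loss alters brown fat under a high-fat diet (HFD). All 10 mice were given HFD, for 24 weeks from an age of 6 to 8 weeks by the sample records. The study's methods give a slightly older starting age. The study describes littermates, names C57BL6/N as its strain and gives the sex of these mice as male. The Axl KO allele (tm1a) carries a gene-trap cassette between exons 4 and 5, was made from 2 embryonic stem cell clones and acts in every tissue of the body throughout life, so a difference between the groups need not arise in fat. Whether the depots were cleared of blood before freezing is not given in the sources used here.

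Haemoglobin is a tetramer of α- and β-globin chains, each holding an iron-containing haem group. Red cells lose their nucleus, but the youngest of them in the circulation (reticulocytes) still carry globin RNA and the RNA of Alas2, the red cell form of the enzyme that starts haem synthesis, whereas other cells use its housekeeping form Alas1. Cells take up iron through the transferrin receptor, store it in ferritin shells of H and L chains and release it through ferroportin, the product of Slc40a1. Brown adipocytes are rich in mitochondria, whose respiratory chain needs haem and iron-sulfur clusters. When iron is scarce, iron regulatory proteins bind a hairpin called the iron-responsive element (IRE), which blocks translation when it lies in a 5′ UTR and stabilises the transcript when it lies in a 3′ UTR.

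The IREs are shown because they mark which of these transcripts share this control. GENCODE M21 transcripts (build GRCm38) were searched on the transcript strand for a C, any 5 bases, the loop CAGTGN with A, C or T in its last place, and 5 bases that pair with the earlier 5 (G-T pairs allowed). The 5 genes shown are those of the 10 that are on a list of 9 genes known to carry IREs, and each held a match. Of that list, 6 genes held a match. Matches were recorded by gene for this list only, so whether the rest of the 10 genes held one is not given here. In the lines below, each 29 bases long, capitals mark the bulged C and the loop. The Fth1 (chr19:9982732-9982760, plus strand), Ftl1 (chr7:45459779-45459807, minus strand) and Slc40a1 (chr1:45925465-45925493, minus strand) hairpins lie in the 5′ UTR, as does that of Alas2 (chrX:150547458-150552149, plus strand), which is joined across an intron. The 4 matches of Tfrc lie in its 3′ UTR, on the plus strand of chromosome 16, in this order: chr16:32631219-32631247, chr16:32631598-32631626, chr16:32631663-32631691 and chr16:32631710-32631738.
Fth1: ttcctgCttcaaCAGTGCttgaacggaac
Ftl1: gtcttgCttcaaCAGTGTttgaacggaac
Slc40a1: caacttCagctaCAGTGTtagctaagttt
Alas2: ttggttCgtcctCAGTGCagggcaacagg
Tfrc 1: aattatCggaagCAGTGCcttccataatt
Tfrc 2: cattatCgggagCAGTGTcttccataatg
Tfrc 3: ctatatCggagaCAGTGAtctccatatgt
Tfrc 4: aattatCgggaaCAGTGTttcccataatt
Such a match was found in the 5′ UTR of 23 of 20899 genes (0.11%) and in the 3′ UTR of 100 of 21028 genes (0.476%). A match is a description of the letters and not a test of binding, and protein levels were not measured in these libraries.

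Promoters are shown for 3 of the red cell genes, because their RNA levels moved together across the mice, as described further on. RefSeq windows of 300 bases (250 before and 50 after the start of the transcript, GRCm38.p6) matched 9 of the 10 genes. Each was searched on both strands for 5 motifs. CACCC is bound by erythroid Krüppel-like factors and AGATAA by GATA factors. CCAAT is bound by nuclear factor Y, whereas TATAAA helps to place the start of transcription. TGACNNNGC holds the core that factors of the NF-E2 type bind. The last 100 bases before the start are printed, with matches in capitals, for Alas2 (chrX:150547317-150547416, plus strand), Hba-a1 (chr11:32283572-32283671, plus strand) and Hbb-bs (chr7:103827929-103828028, minus strand).
Alas2: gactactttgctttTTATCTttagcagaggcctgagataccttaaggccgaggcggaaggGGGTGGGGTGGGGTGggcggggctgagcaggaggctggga
Hba-a1: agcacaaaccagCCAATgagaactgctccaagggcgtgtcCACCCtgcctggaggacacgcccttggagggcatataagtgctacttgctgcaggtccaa
Hbb-bs: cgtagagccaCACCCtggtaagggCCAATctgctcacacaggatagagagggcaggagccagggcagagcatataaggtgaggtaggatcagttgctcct
CACCC stood 3 times in a row on the opposite strand of the Alas2 window, beside 1 AGATAA that also lies on the opposite strand. The AGATAA of Hbb-bs lay further upstream and is not printed. Hba-a1 and Hbb-bs each held CCAAT and CACCC within 100 bases of the start. Windows of the haem and iron genes Ftl1, Fth1 and Tfrc also held CACCC and CCAAT, and those of Alas1 held CACCC, but none of these held AGATAA. These letters are common: of 32851 RefSeq promoters of the same length, 57.5% held CACCC, 37.4% CCAAT, 13.6% TATAAA, 12.4% TGACNNNGC and 11.2% AGATAA.

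The libraries held between 5431014 and 9580215 counts, so that even the least abundant of the 10 genes, Alas2, had 57 to 188 counts in each mouse. Axl itself had 0.437 to 2.01 CPM in the 5 Axl KO mice and 38.2 to 52.3 CPM in the 5 WT mice (log2 fold change -4.77, edgeR adjusted p = 1.10e-07), in the direction the labels give. Adipocyte genes were abundant, with a mean of 6731 CPM for Fabp4 and 4840 CPM for the brown fat marker Ucp1. Skeletal muscle RNA differed widely between depots: the summed level of 12 muscle genes, all of them detected, lay between 7.21 and 3459 CPM in Axl KO and between 788 and 3914 CPM in WT mice, and it was lowest in Axl KO mice 1 and 2 (28.9 and 7.21 CPM). The tables of any pair of mice differed by more than counting noise.

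Per kb of annotated exon, the highest level among the 10 genes as counted was that of Hbb-bs, at 421 ± 85.7 CPM per kb (mean ± SD over all 10 mice), and Ftl1 was close to it at 410.5 ± 56.8, so that both ranges overlapped. With the counts of Gm22133, a gene annotated within an exon of Ftl1, added to it, Ftl1 came to 551 ± 75.9 CPM per kb and the order of the means turned, the ranges still overlapping. Fth1 followed at 208 ± 20.4 and Hba-a1 at 121 ± 24.3, each separated from the gene above it in all mice. Hba-a2 (95.3 ± 22.6), Alas1 (75.1 ± 10.6) and Hbb-bt (69.8 ± 12.5) overlapped with their neighbours in this order. Tfrc, at 26.4 ± 3.86, was lower than these in every mouse. Alas2 (6.13 ± 1.76) and Slc40a1 (3.96 ± 0.668) were the lowest and overlapped with each other. This order holds for the union of annotated exons and differs with another length. With the coding transcript lengths given next, the mean of Fth1 would stand above those of Hbb-bs and of Ftl1 as counted. For Fth1 the union is 3469 bases, beside 929 in a coding transcript of the gene. It is 1340 beside 968 bases for Ftl1 and 768 beside 628 for Hbb-bs.

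**Figure D1:**
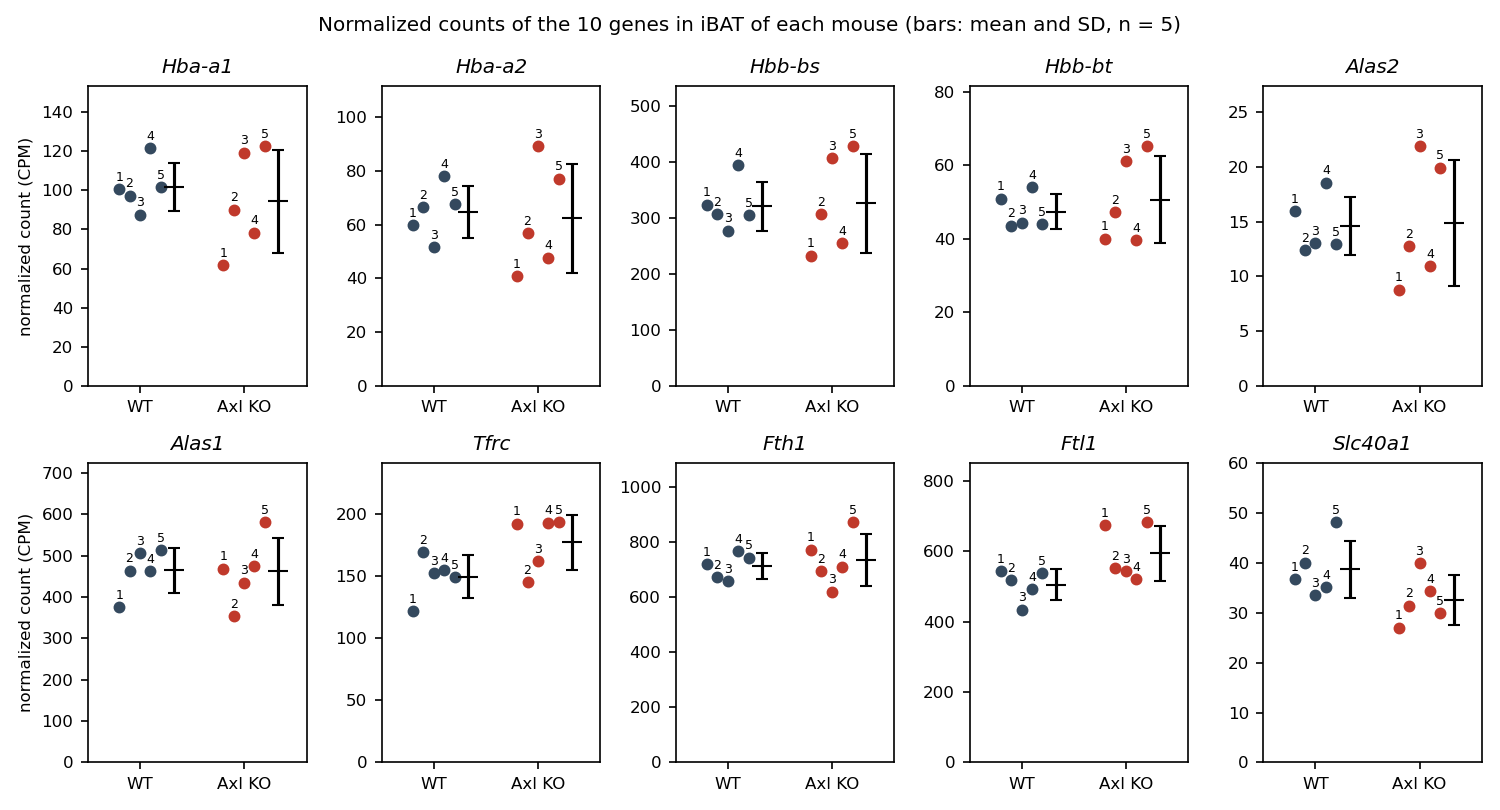
Normalized counts (CPM, linear axes from 0) of the 10 genes in iBAT of each mouse, WT in dark blue and Axl KO in red, numbered by mouse, with the mean and SD of 5 mice beside the points. The 5 red cell genes in the upper row have mice 3 and 5 highest and mice 1 and 4 lowest among Axl KO mice, which the 5 genes of the lower row do not share, and the groups overlap for each gene.

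Axl KO and WT mice were first compared for the RNA of red cells. Summed over the 4 globin genes, haemoglobin measured 375, 502, 677, 420.2 and 694 CPM in Axl KO mice 1 to 5 and 535, 514, 461, 648 and 518 CPM in WT mice 1 to 5. Of the Axl KO mice, 2 lay above the highest WT mouse and 2 below the lowest, so Axl KO mice reached beyond the WT mice at both ends. The means were 533 ± 146 CPM in Axl KO and 535 ± 68.8 CPM in WT mice (SD, n = 5 each), a log2 fold change of -0.00 (SE 0.16, edgeR adjusted p = 0.998). The 95% interval of the fold ran from 0.781 to 1.27, which bounds what these 10 mice could show. The blood content itself was not measured, and in whole-tissue RNA fewer red cells and less RNA per red cell cannot be told apart.

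Single globin genes gave the same picture. Hbb-bs (ENSMUSG00000052305, chr7:103826534-103828096, minus strand), the most abundant β-globin gene, measured 232, 307, 407, 255 and 429 CPM in Axl KO and 324, 306, 277, 394 and 305 CPM in WT mice. Its neighbour Hbb-bt (chr7:103812524-103813996) measured 40.1, 47.3, 61.2, 39.6 and 65.3 CPM in Axl KO and 50.9, 43.6, 44.4, 54.2 and 44.0 CPM in WT mice. In both, Axl KO mice 3 and 5 were the highest of all 10 mice and Axl KO mice 1 and 4 the lowest.

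Of the α-globin genes, Hba-a1 (ENSMUSG00000069919, chr11:32283511-32284465, plus strand) measured 61.9, 90.2, 119, 78.3 and 123 CPM in Axl KO and 101, 97.3, 87.6, 122 and 102 CPM in WT mice. Hba-a2 (chr11:32296489-32297298) measured 40.9, 56.8, 89.3, 47.7 and 77.2 CPM in Axl KO and 59.9, 66.4, 51.6, 78.1 and 67.6 CPM in WT mice. Here WT mouse 4 stood beside Axl KO mice 3 and 5 among the 3 highest. The log2 fold changes of the 4 globin genes lay between -0.11 (Hba-a1) and 0.10 (Hbb-bt), with edgeR adjusted p-values between 0.860 and 0.985.

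Alas2 (ENSMUSG00000025270, chrX:150547375-150570638, plus strand) measured 8.79, 12.8, 21.9, 10.9 and 19.9 CPM in Axl KO and 16.0, 12.4, 13.1, 18.6 and 13.0 CPM in WT mice. The order of the Axl KO mice was that of haemoglobin but for mice 3 and 5, which changed places, and Axl KO mice again reached beyond the WT mice at both ends. Its log2 fold change was 0.04 (SE 0.23, edgeR adjusted p = 0.976). The coefficient of variation of the red cell genes was 23.5 to 38.7% among Axl KO mice and 10.2 to 18.0% among WT mice, and this difference in spread was not tested.

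Skeletal muscle RNA had positive haemoglobin slopes, as given further on, and lay below every WT mouse in Axl KO mice 1, 2 and 4. With the muscle level of each mouse in the model, the haemoglobin difference was 0.18 on the log2 scale (edgeR adjusted p = 0.825), opposite in sign to the value without it and on the same side of the threshold. Leaving out 1 mouse at a time placed it between -0.12 and 0.10. The part of muscle in these values was not tested further.

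The edgeR quasi-likelihood test called 1 of 13739 genes (0.00728%) at an adjusted p under 0.05, Axl itself, and 0 of the 10 genes described here. DESeq2 called 9 genes and also 0 of these 10. At an unadjusted p under 0.05, 1154 genes (8.4%) passed, 624 of them higher and 530 lower in Axl KO mice, and 2 of the 10 genes did, Tfrc and Ftl1, both higher. The groups did not overlap for 186 genes (1.35%), and for 0 of these 10.

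Among the genes that handle iron, Tfrc (ENSMUSG00000022797, chr16:32608920-32632794, plus strand), which imports transferrin-bound iron, measured 192, 145, 162, 193 and 193 CPM in Axl KO and 121, 169, 152, 155 and 149 CPM in WT mice. Axl KO mice 1, 4 and 5 lay above every WT mouse, and Axl KO mouse 2 below 4 of the 5. The means were 177 ± 22.4 and 149 ± 17.4 CPM (SD, n = 5 each), a log2 fold change of 0.24 (SE 0.10). The unadjusted p was 0.0314, and after adjustment over all genes edgeR gave 0.571, so the difference did not pass. Over the alternative fits its log2 fold change stayed between 0.18 and 0.31 and its adjusted p between 0.262 and 0.812.

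Ftl1 (ENSMUSG00000050708, chr7:45457944-45459884, minus strand), the ferritin light chain that helps iron enter the mineral core, measured 675, 552, 544, 521 and 682 CPM in Axl KO and 544, 518, 434, 492 and 538 CPM in WT mice. All 5 Axl KO mice exceeded the WT median, and mice 1, 2 and 5 exceeded the highest WT mouse, mouse 2 by little. The log2 fold change was 0.24 (SE 0.09, unadjusted p = 0.0264, edgeR adjusted p = 0.571). An annotated microRNA gene, Gm22133 (chr7:45458089-45458197, minus strand), lies within Ftl1 on the same strand and took 13615 counts beside the 39692 of Ftl1, a share of 24.9 to 26.3% of their sum in every mouse. Summed with it, Ftl1 averaged 798 ± 103 CPM in Axl KO and 679.6 ± 63.4 CPM in WT mice (two-sided exact permutation p = 0.0476, not adjusted, where the smallest p that 5 against 5 mice allow is 0.00794). The same permutation test gave an unadjusted p of 0.0476 for Ftl1 alone, 0.0794 for Tfrc, 0.0952 for Slc40a1 and 0.0952 for Gm22133.

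Fth1 (ENSMUSG00000024661, chr19:9980598-9985098, plus strand), the ferritin heavy chain that oxidises iron, measured 772, 693, 619, 709.7 and 870.0 CPM in Axl KO and 718, 672, 658, 767 and 743 CPM in WT mice. Axl KO mice held both the highest and the lowest value, with WT mice between them. Its log2 fold change was 0.04 (SE 0.09, edgeR adjusted p = 0.912), and the 95% interval of the fold, 0.903 to 1.17, was narrow for this gene.

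Slc40a1 (ENSMUSG00000025993, chr1:45908068-45926523, minus strand), whose product ferroportin is the iron exporter of cells, measured 27.0, 31.4, 40.0, 34.4 and 29.9 CPM in Axl KO and 36.7, 40.0, 33.5, 35.1 and 48.1 CPM in WT mice. Axl KO mice 1, 2 and 5 lay below every WT mouse, and no Axl KO mouse lay above the highest WT mouse. The log2 fold change was -0.25 (SE 0.12, unadjusted p = 0.0572, edgeR adjusted p = 0.601), and over the alternative fits it lay between -0.34 and -0.16 with an adjusted p of 0.204 to 0.820.

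Alas1 (ENSMUSG00000032786, chr9:106233455-106248654, minus strand), the housekeeping enzyme of the first step of haem synthesis, measured 469, 354, 435, 474 and 581 CPM in Axl KO and 376, 464, 506, 463 and 514 CPM in WT mice. Axl KO mice held both the lowest and the highest value, and the WT mice lay between them. Its log2 fold change was -0.01 (SE 0.12, edgeR adjusted p = 0.996) and the interval of the fold ran from 0.831 to 1.19.

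**Figure D2:**
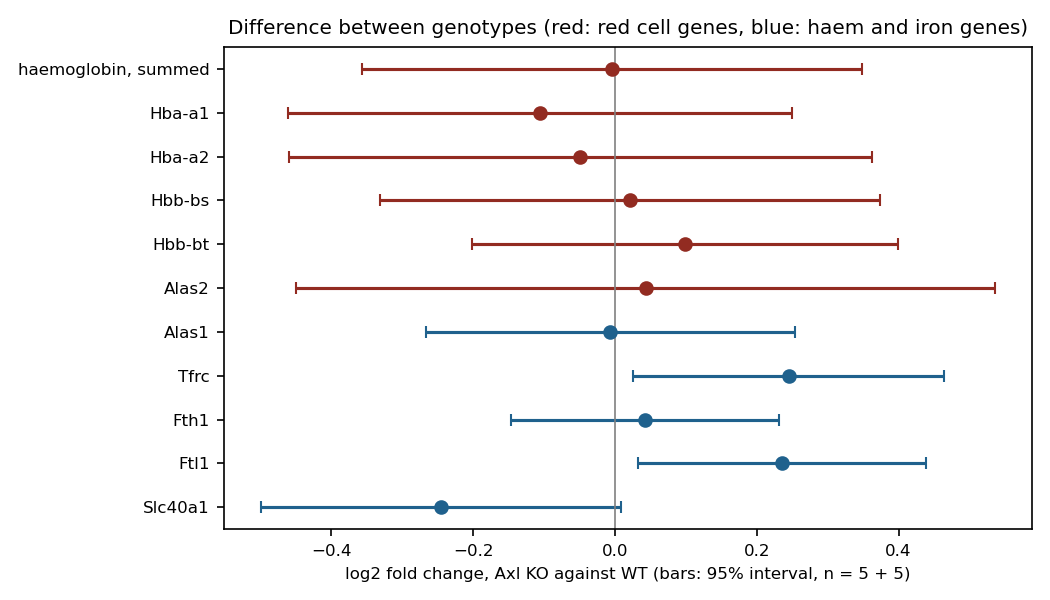
Log2 fold change of Axl KO against WT mice for summed haemoglobin and the 10 genes (horizontal axis), with bars for the 95% interval from edgeR's quasi-likelihood fit over 5 and 5 mice; red cell genes are red, haem and iron genes blue. The intervals of Tfrc and Ftl1 lie above 0 before adjustment for the number of genes tested, that of Slc40a1 reaches 0.01, and the red cell genes lie around 0.

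The second question was which of these genes varied with the blood RNA of the depot. Since haemoglobin RNA differed up to 1.85-fold among Axl KO mice, the 10 mice were compared along this axis, with genotype in the model, over all genes but the 4 globin genes. A slope of 1 on the log2 scale means that a gene changed in proportion to haemoglobin.

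Alas2 followed haemoglobin with a slope of 1.37 (SE 0.17, 95% interval 1.00 to 1.74, unadjusted p = 3.63e-06, edgeR adjusted p = 0.0499). It was the 1 gene called of 13735 (0.00728%), at the edge of the threshold, while 801 genes (5.83%) passed an unadjusted p under 0.05, 499 with a positive and 302 with a negative slope. DESeq2 called Alas2 (slope 1.37, adjusted p = 5.32e-04) and 1 more gene, the mitochondrial mt-Co2, with a negative slope. Leaving out any 1 mouse kept the slope of Alas2 between 1.26 and 1.44 but ended the call in all 10 fits (edgeR adjusted p between 0.0682 and 0.954). With skeletal muscle RNA as a further covariate, chosen after the data were seen, the slope was 1.20 (unadjusted p = 1.67e-04) and 0 genes were called.

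None of the other 5 genes had a slope near that of Alas2. Slc40a1 had a slope of 0.22 (95% interval -0.25 to 0.70), Alas1 0.10 (-0.38 to 0.58), Fth1 0.08 (-0.27 to 0.44), Ftl1 0.05 (-0.33 to 0.43) and Tfrc -0.10 (-0.50 to 0.30). All 5 intervals held 0, their upper ends lay below 1, and none of these genes was among the 5.83% with an unadjusted p under 0.05. Haemoglobin as a covariate left the genotype difference of Tfrc at 0.24, that of Ftl1 at 0.24 and that of Slc40a1 at -0.24 on the log2 scale.

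Over the 10 mice, log2 CPM of Alas2 and of summed haemoglobin had a Pearson r of 0.967 (permutation p = 5.00e-05, adjusted over the 6 genes compared 3.00e-04) and a Spearman rho of 0.903 (permutation p = 9.10e-04, adjusted 0.00546). Without Axl KO mice 1 and 5, the 2 farthest from the median of haemoglobin, r was 0.940 (permutation p adjusted 0.00390), whereas rho was 0.833 and no longer passed (permutation p adjusted 0.0958). For Alas1, Tfrc, Fth1, Ftl1 and Slc40a1, r was 0.12, -0.18, 0.12, 0.04 and 0.29, with adjusted permutation p-values of at least 0.881.

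**Figure D3:**
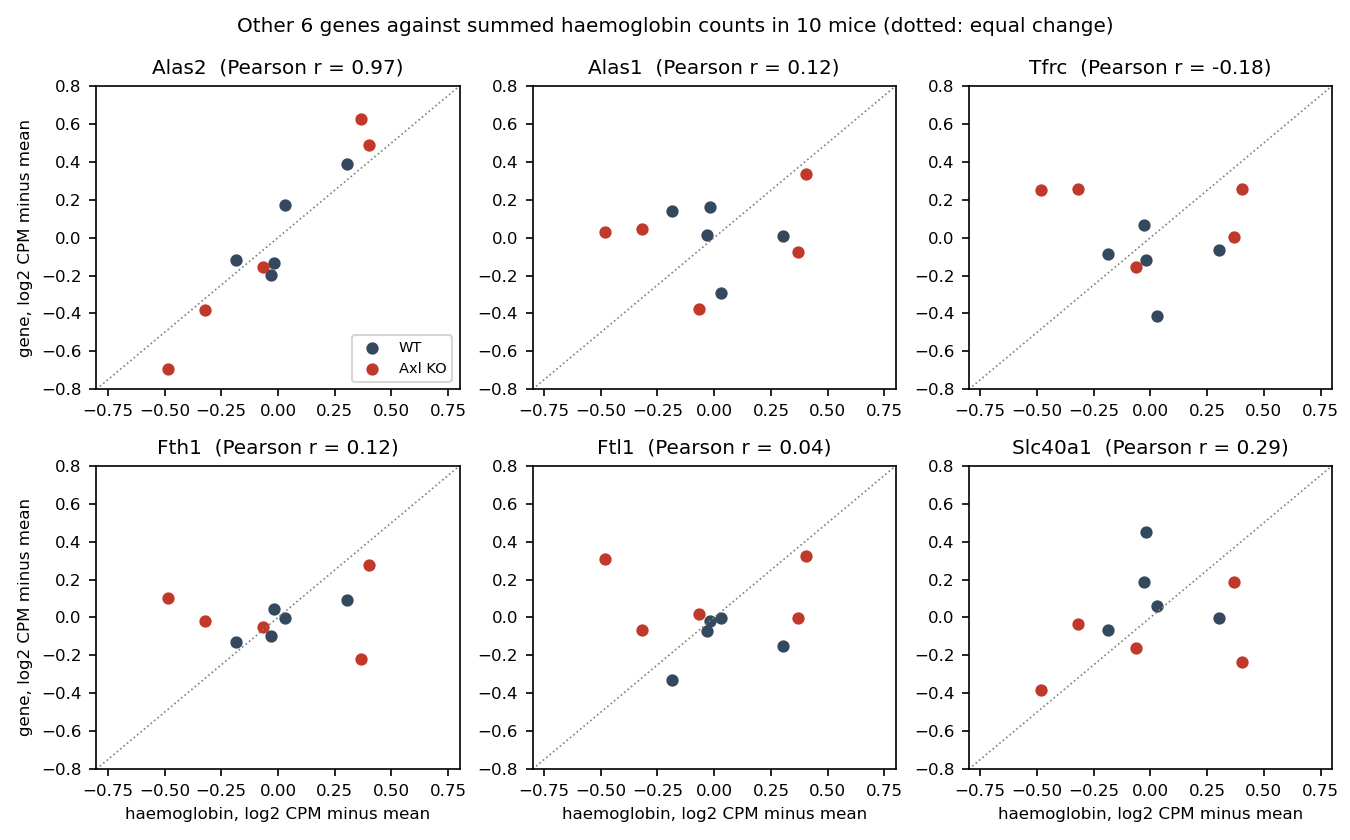
Log2 CPM of 6 genes (vertical axes) against log2 CPM of summed haemoglobin (horizontal axes), each minus its mean over the 10 mice, with WT mice in dark blue, Axl KO mice in red and a dotted line where both change equally. Alas2 lies close to the line, somewhat steeper than it, with r = 0.97, whereas the other 5 genes scatter with r between -0.18 and 0.29.

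Pairwise correlations between the 10 genes over the 10 mice are given as a description, with no test. Among the 5 red cell genes the 10 pairs had r between 0.825 and 0.965, with a median of 0.942. Between the red cell genes and the 5 haem and iron genes the 25 pairs had r between -0.291 and 0.500 (median 0.065). Among the haem and iron genes themselves the 10 pairs lay between -0.466 and 0.645 (median 0.252), the highest being the 2 ferritin chains and the lowest Ftl1 with Slc40a1. All these values come from the same 10 libraries and share their normalization.

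**Figure D4:**
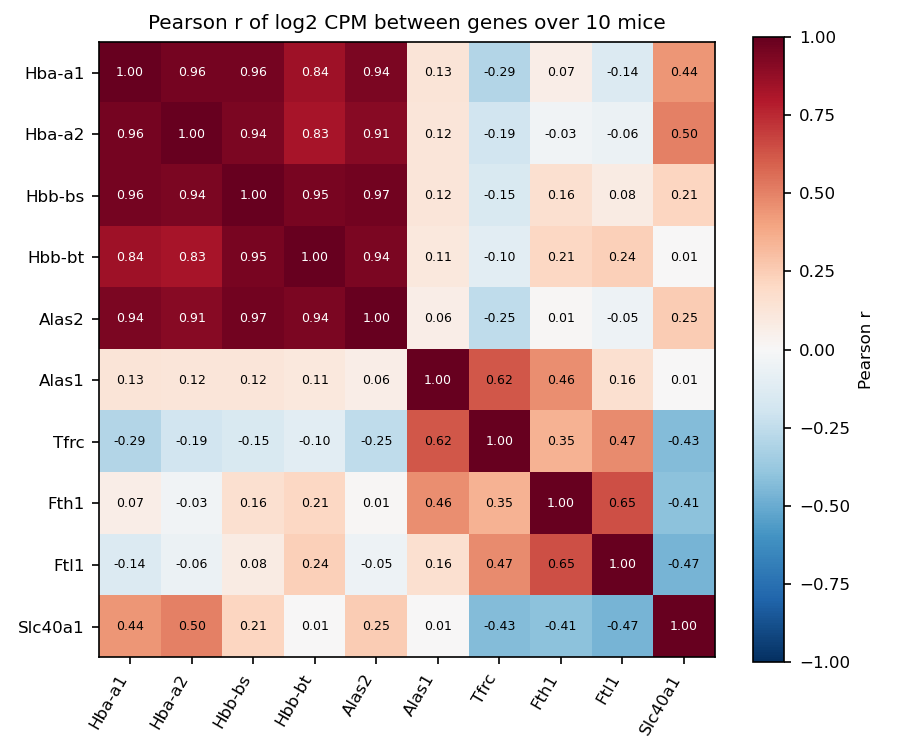
Pearson r of log2 CPM between each pair of the 10 genes over the 10 mice, coloured from blue (-1) to red (1) with the value in each square. The 5 red cell genes form a block with r of 0.825 to 0.965, and the squares that join them to the haem and iron genes lie between -0.291 and 0.500.

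The proportions between the globin genes varied less than their amount. Haemoglobin made up 0.0372% (95% Wilson interval 0.0357 to 0.0387%) of the library of Axl KO mouse 1 and 0.0707% (0.0689 to 0.0725%) of that of Axl KO mouse 3, the lowest and the highest of the 10. These intervals cover counting error only. The α-globin genes took 27.4 to 32.7% of all globin counts, with a coefficient of variation of 4.98% over the 10 mice. Their share averaged 29.3 ± 1.29% in Axl KO and 31.1 ± 1.13% in WT mice (SD, n = 5 each, two-sided exact permutation p = 0.0397, 1 of 6 ratios compared and not adjusted). Alas2 had 2.34 to 3.24 counts per 100 globin counts, at 2.72 in both groups (exact permutation p = 0.984).

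How the counts were split within each globin pair is uncertain. The coding sequences of Hba-a1 and Hba-a2, each 429 bases long, differ at 1 base, and 56.5% of the 100-base stretches of one transcript occur in the other. Those of Hbb-bs and Hbb-bt, each 444 bases long, also differ at 1 base, and 62.6% of such stretches are shared. Hba-a2 took 37.0 to 42.8% of the α-globin counts and Hbb-bt 12.1 to 14.7% of the β-globin counts. Alas2 overlaps Apex2, a DNA repair gene on the opposite strand with 1786 counts, and the strand setting of the counting is not given in the sources used here. Apex2 had a haemoglobin slope of 0.20 (edgeR adjusted p = 0.964).

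Other genes of red cells were scarce. Of 25 further red cell genes in the files, 5 passed the filter on low counts, and the embryonic globin genes Hbb-bh1, Hbb-y and Hba-x had 0 counts in all mice. Slc4a1, the anion exchanger of the red cell membrane, averaged 0.717 CPM, and the erythroid regulators Klf1 and Gata1 0.048 and 0.012 CPM. The 5 tested genes all had a positive haemoglobin slope, with a median of 0.71 beside 0.01 over all genes, and 1 had an unadjusted p under 0.05: Ube2l6, a ubiquitin-conjugating enzyme, with a slope of 0.71 (unadjusted p = 0.0184, edgeR adjusted p = 0.843). Bpgm, which makes the red cell metabolite 2,3-bisphosphoglycerate, was the most abundant of them at 22.5 CPM, with a slope of 0.22.

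Markers of other blood cells were mostly below 1 CPM. Of 12 platelet genes 2 were tested (Pf4 at 4.15 and Itga2b at 1.47 CPM), of 13 neutrophil genes 1 (Csf3r at 1.04 CPM, followed by Mmp9 at 0.703 CPM) and of 12 lymphocyte genes 1 (Ighm at 33.9 CPM, followed by Cd4 at 0.528 CPM). Their haemoglobin slopes were -0.01 for Pf4, -0.13 for Itga2b, -0.96 for Csf3r and 0.69 for Ighm, none with an unadjusted p under 0.05.

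Markers of other cells in the depot were compared along haemoglobin in the same way, and 0 were called. Over all 13735 genes, 7079 had a positive slope and 5.83% an unadjusted p under 0.05. The genes of a list were read in the same 10 mice, so they are not independent results. All 12 skeletal muscle genes had a positive slope, with a median of 3.64, and 10 had an unadjusted p under 0.05. These were Myh7 with 5.65, Myh2 with 4.43, the oxygen-binding haem protein gene Mb with 3.66, and Acta1, Myh1, Tnnt3, Tnni2, Mylpf, Actn3 and Pvalb between 3.08 and 4.09, while Myh4, the most abundant at 545 CPM, had 3.49 and Ckm 3.60. Between genotypes all 12 had a negative log2 fold change (median -1.02), 0 of them with an unadjusted p under 0.05. All 10 tested macrophage genes were positive as well (median 0.48). C1qb, with a slope of 0.79, and C1qc, with 0.62, had an unadjusted p under 0.05, and the most abundant, Lyz2 and Mrc1, had 0.60 and 0.45. Of 10 endothelial genes 8 were positive (median 0.20), Pecam1 (0.45) and Tek (0.42) passed that level, and Kdr, the most abundant, had -0.06. Between genotypes 2 endothelial genes had an unadjusted p under 0.05, Egfl7 (log2 fold change -0.31) and Cldn5 (-0.73), beside 8.4% of all genes. Of 12 brown adipocyte genes 6 were positive (median -0.00), Dio2 with 0.73 and Cidea with -0.37 having an unadjusted p under 0.05. The part of these cells in the relation of Alas2 to haemoglobin was not tested beyond the fit with muscle.

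After Alas2, the genes with the smallest p in this fit were Lman2l (slope -0.84), Atp6v0e2 (2.13), mt-Co2 (-2.04), Casq2 (2.38), 4930415O20Rik (2.58), Fam78a, Nfkbia (0.96), Nfil3 (0.85) and Pdlim7 (1.12), with edgeR adjusted p-values between 0.580 and 0.843. Ranked by Pearson r of log2 CPM over the 10 mice, the 5 genes most like summed haemoglobin were Alas2, Htatsf1 (0.916), Txndc5 (0.903), Thsd1 (0.901) and Emb (0.900). The gap between Alas2, at 0.967, and the next gene was wider than the gaps among the following 4.

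The same ranking placed other genes beside the haem and iron genes. The 5 most like Alas1 were Etfa (0.979), Micall1, Siae, 2310001H17Rik and Pts (0.905). Most like Tfrc were Sucla2 (0.963), Ninj1, Rbm17, Idh3a and Cd82 (0.906), of which Sucla2 and Idh3a encode mitochondrial enzymes of the citric acid cycle. Most like Slc40a1 were Chst7 (0.965), Mturn, Ablim3, Add1 and Mpdz (0.948), most like Fth1 were Orm1 (0.945), C1rl, Kctd1, Elovl4 and Rom1 (0.920), and most like Ftl1, after the nested Gm22133 (0.986), were Ephb2 (0.954), Syt12, Arf1 and Fdps (0.944). None of the genes in these lists of 5 is 1 of the 10 genes described here, apart from Alas2 beside haemoglobin.

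The remaining steps of haem synthesis were compared between genotypes as a list of 16 genes, including Alas1 and Alas2. Of these, 10 were higher and 6 lower in Axl KO mice (median 0.06 on the log2 scale, beside -0.00 over all 13739 genes), and 0 passed the adjusted threshold. Over all genes, 6840 were higher and 6899 lower, and 8.4% had an unadjusted p under 0.05. Uros, which closes the porphyrin ring, had 29.3 ± 2.82 CPM in Axl KO and 25.7 ± 1.75 CPM in WT mice (unadjusted p = 0.0347, edgeR adjusted p = 0.571). Abcb6, a porphyrin transporter, had means of 42.4 and 46.7 CPM (log2 fold change -0.14, unadjusted p = 0.0351, edgeR adjusted p = 0.571). The most abundant of the list after Alas1 was Slc25a39, a mitochondrial carrier, at 315.5 CPM with a log2 fold change of 0.11, and Fech, which inserts the iron, had a log2 fold change of -0.01.

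Genes that break down or carry haem were divided, with 5 higher and 5 lower of 10 tested (median -0.04). The 3 with an unadjusted p under 0.05, beside 8.4% of all genes, were all lower in Axl KO mice: Lrp1, a receptor that clears haem-haemopexin complexes among many ligands (log2 fold change -0.27, unadjusted p = 0.0121), and the biliverdin reductases Blvra (-0.17, unadjusted p = 0.0336) and Blvrb (-0.23, unadjusted p = 0.0429), with edgeR adjusted p-values of 0.571 to 0.581. Hp, which encodes the haemoglobin-binding protein haptoglobin, was the most abundant at 1057 CPM (log2 fold change 0.14). Hmox1, the inducible haem oxygenase, did not differ between genotypes beyond its spread (0.01, edgeR adjusted p = 0.997) and had a haemoglobin slope of 0.63 (unadjusted p = 0.0334, edgeR adjusted p = 0.843). Blvrb had a negative slope of -0.40 (unadjusted p = 0.0307).

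Of 10 tested genes of iron uptake, 7 were higher and 3 lower in Axl KO mice (median 0.20), and 0 were called. Over all 13739 genes, 6840 were higher and 6899 lower. An unadjusted p under 0.05 was reached by 2 of the higher and 1 of the lower genes, beside 8.4% of all genes. Beside Tfrc, the iron transporter Slc11a2 (DMT1) had 65.7 ± 8.89 CPM in Axl KO and 56.7 ± 3.62 CPM in WT mice (unadjusted p = 0.0322, edgeR adjusted p = 0.571). Scara5, described as a ferritin receptor, had 11.6 ± 0.767 and 15.5 ± 3.89 CPM (log2 fold change -0.43, unadjusted p = 0.0148, edgeR adjusted p = 0.571). Steap4, a metalloreductase, was the most abundant of the list at 174 CPM, with a log2 fold change of 0.41 (unadjusted p = 0.113), and the metal transporter Slc39a8 had a haemoglobin slope of -0.99 (unadjusted p = 0.0352).

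Of 8 genes of iron storage and release, 4 were higher and 4 lower (median -0.07). An unadjusted p under 0.05 was reached by 1 of the higher and 1 of the lower genes, beside 8.4% of all genes. Beside Ftl1, Pcbp2, an iron chaperone that also binds RNA, had 58.3 ± 5.64 CPM in Axl KO and 67.4 ± 3.76 CPM in WT mice (log2 fold change -0.21, unadjusted p = 0.0129, edgeR adjusted p = 0.571) and a haemoglobin slope of -0.27 (unadjusted p = 0.0375). All 7 tested regulators of iron balance had a negative log2 fold change (median -0.16), beside 6899 of all 13739 genes, but 0 were called: Neo1, a co-receptor of bone morphogenetic protein signalling, had -0.19 (unadjusted p = 0.0244), while Aco1, which encodes iron regulatory protein 1 and was the most abundant, had -0.05 and Fbxl5, the iron-sensing ligase subunit, -0.09. Of these 7, Hfe2 (hemojuvelin) had a haemoglobin slope of 3.52 (unadjusted p = 0.0258), close to the median of the muscle genes, and 0.00 to 18.3 CPM in Axl KO mice. The hormone gene Hamp had 0 counts.

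Of 22 genes of mitochondrial iron and iron-sulfur cluster assembly, 16 were higher and 6 lower in Axl KO mice (median 0.09). The single gene with an unadjusted p under 0.05 was Lyrm4, a subunit of the cysteine desulfurase complex, with 11.5 ± 1.10 CPM in Axl KO and 9.48 ± 0.968 CPM in WT mice (unadjusted p = 0.0299, edgeR adjusted p = 0.571). The chaperone Hspa9, at 1720.3 CPM the most abundant, had a log2 fold change of 0.08, and Isca1 0.04. In the same depots 10 of 12 brown adipocyte genes were higher, 5 of them with an unadjusted p under 0.05 (Ucp1 0.43, Dio2 0.89, Elovl3 1.67, Cox8b 0.24 and Cox7a1 0.14), and their part in the iron and mitochondrial lists was not tested. Of all 13739 genes, 6840 were higher and 8.4% had an unadjusted p under 0.05.

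The genes known to carry IREs, 9 in all, were split by the place of the hairpin. Of those with a hairpin in the 5′ UTR printed earlier, Ftl1 (0.24), Fth1 (0.04) and Alas2 (0.04) had positive and Slc40a1 (-0.25) a negative log2 fold change. Tfrc, with 4 matches to the hairpin pattern in its 3′ UTR, had 0.24. At an unadjusted p under 0.05 stood 3 of the 9 (Ftl1, Tfrc and Slc11a2), beside 8.4% of all genes, and 0 were called.

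**Figure D5:**
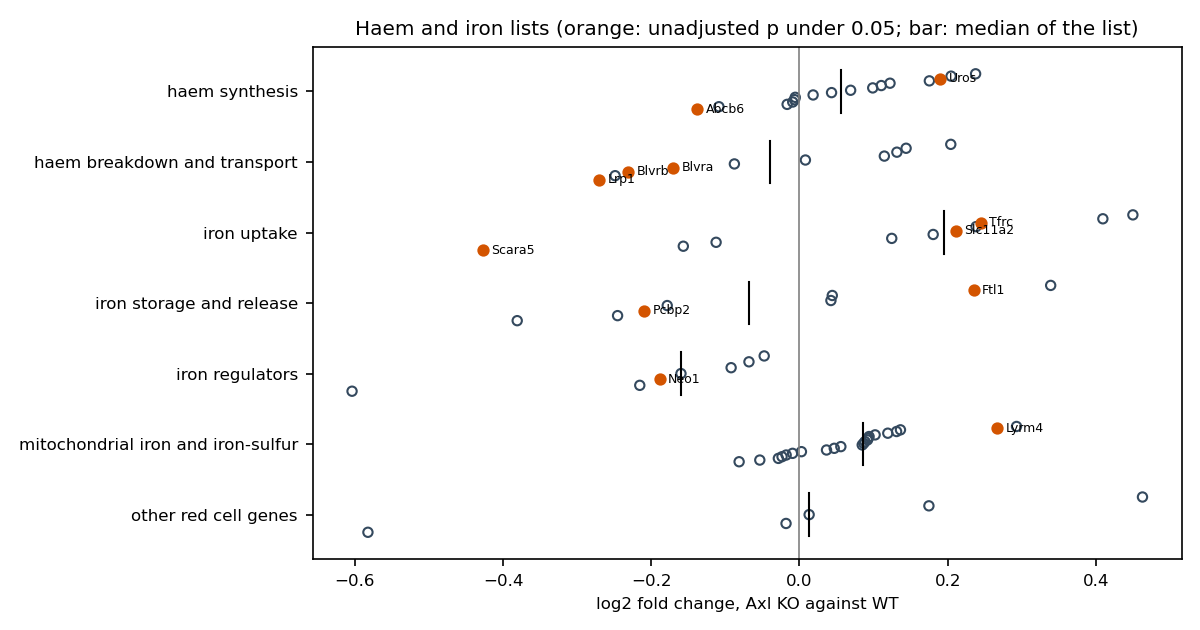
Log2 fold change of Axl KO against WT mice (horizontal axis) for each tested gene of 7 haem, iron and red cell lists (rows), with genes at an unadjusted p under 0.05 filled in orange and named and the median of each list as a bar. Medians lie between -0.16 for the iron regulators and 0.20 for iron uptake, and 0 genes passed the adjusted threshold.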

How the data were processed

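RNA of whole iBAT was sequenced in 10 mice, 5 Axl KO and 5 WT. The deposited tables hold raw counts of reads per Ensembl gene, made by the authors for 1 mouse each, without normalization or pooling. The paper's methods name Trim Galore, hisat2 and GRCm38 with rRNA-depleted RNA, whereas the submitters' processing notes name Trimmomatic 0.36, STAR 2.6.1c and GRCm38.p5, and the labels polyadenylated RNA. The counting tool, its strand setting and its treatment of reads with several matches are not given in the sources used here. Of 41249 identifiers, 41163 took a symbol from GENCODE M21.

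Genotypes were compared with edgeR 4.0.16 under R 4.3.3, by the quasi-likelihood test after TMM scaling and without covariates. Tested were 13739 genes whose mean exceeded 1 CPM. P-values were adjusted by Benjamini and Hochberg's method, with a threshold of 0.05. The common biological coefficient of variation was 14.8%. Summed globin counts entered a fit of their own as 1 row. For the haemoglobin slope, log2 summed globin CPM was added to the genotype model. Values of 1 gene or ratio were also compared by two-sided exact permutation tests, and correlations tested by permutation with 100000 resamples. No pseudocount was used. Exon lengths are the union of annotated exons. The procedure was tested on simulated data. The total count per mouse, 5431014 to 9580215, limits the precision of low genes. Samples with the same replicate number did not consistently deviate together (r between -0.356 and 0.373), so the numbers were not used to pair mice in the main fits. Whether the mice came from separate litters is not given, so p-values measure the spread between these mice.

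The genes, the gene lists and the tests were chosen with earlier results of these data known. Named are the 10 genes, Axl, of each list the 2 most abundant genes and those with an unadjusted p under 0.05 in either fit, the 10 genes with the smallest p in the haemoglobin fit and the 5 genes most correlated with each of haemoglobin, Alas1, Tfrc, Slc40a1, Fth1 and Ftl1. Any further gene was named after its values were seen. Alternatives were DESeq2 1.42.0, other size factors, library sizes and filters, a robust fit, haemoglobin or skeletal muscle as a covariate, the replicate number as a block and each mouse left out; the muscle covariate in the haemoglobin fit and the alternatives of the correlations, other than leaving out the 2 mice farthest from the median, were chosen after seeing the data. Ahsp was not analysed here, and a few genes that this rule would name are not reported here.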

Additional observations from a re-analysis of the deposited data

Results flagged for a closer look

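In each genotype the highest and lowest mouse of summed haemoglobin and of each of the 10 genes was compared with the rest of its group by Dixon's ratio. Of 22 groups of 5 mice, 0 held a mouse past the 95% critical value of 0.71.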

How the results depend on the processing

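Tfrc, Ftl1 and Slc40a1 kept the direction of their genotype difference under all alternatives run, and between genotypes 0 of the 10 genes passed the adjusted threshold in any of them. DESeq2 called 9 genes between genotypes, and 2 along haemoglobin. With skeletal muscle as covariate the log2 fold change was 0.18 for summed haemoglobin, 0.083 for Hba-a1, 0.14 for Hba-a2 and 0.10 for Alas1, and along haemoglobin the slope was 1.20 for Alas2 and -0.22 for Alas1, with 0 genes called. Under this covariate the log2 fold change was 0.35 for Alas2, 0.21 for Hbb-bs and 0.27 for Hbb-bt. For Hbb-bt the edgeR unadjusted p was 0.0445 and the adjusted p 0.724. With the replicate block, Hbb-bs had -0.011 and Alas2 -0.0078 between genotypes; along haemoglobin the slope was 1.39 for Alas2 and -0.20 for Alas1, with 0 genes called. Whether the numbers pair mice is not known, and the cause of these changes was not tested. Without the 2 mice farthest from the median of haemoglobin, r was -0.16 for Alas1 and -0.077 for Fth1.

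Leaving out each mouse in turn, the log2 fold change ranged from -0.12 to 0.10 for summed haemoglobin, -0.21 to 0.014 for Hba-a1, -0.22 to 0.071 for Hba-a2, -0.10 to 0.12 for Hbb-bs, -0.0037 to 0.18 for Hbb-bt, -0.16 to 0.18 for Alas2, -0.10 to 0.076 for Alas1 and -0.028 to 0.10 for Fth1. The haemoglobin slope ranged from 1.26 to 1.44 for Alas2, with 0 genes called, -0.22 to 0.18 for Alas1, -0.16 to 0.28 for Fth1, -0.15 to 0.32 for Ftl1 and -0.0054 to 0.39 for Slc40a1. Pearson's r with haemoglobin ranged from -0.21 to 0.20 for Alas1, -0.34 to 0.49 for Fth1, -0.35 to 0.53 for Ftl1, -0.061 to 0.55 for Slc40a1 and -0.49 to 0.075 for Tfrc.

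With 57 to 188 counts of Alas2 in a mouse, counting error is part of its spread, and 5 mice in each group left the haemoglobin fold between 0.781 and 1.27. The call of Alas2 stands at the edge of the threshold.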
